A study of Homo sapiens and Mus musculus with 30 samples.

Results

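Am576 (18S-Am576) is an adenosine of human 18S ribosomal RNA (rRNA), named by its position, and a site of 2′-O-methylation that published target tables assign to the small nucleolar RNA SNORD93. The row was found by its number and base in the human files, and in mouse by aligning the 18S sequence spelled out in the files, which placed it at position 578. It is 1 of 111 catalogued rRNA sites that could be placed on the sequences, with 42 in the 18S, 67 in the 28S and 2 in the 5.8S molecule. The site was chosen by its methylation scores in these data, which differed between adult and newborn brain and between neural and undifferentiated H9 cells, so those differences are described with no test.

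In 2′-O-methylation a methyl group is added to the ribose of a nucleotide. Box C/D small nucleolar RNAs guide it: each pairs with a stretch of rRNA and places the methyltransferase fibrillarin over the nucleotide at a fixed distance from a conserved box of the guide. Most rRNA sites are methylated in nearly all ribosomes of a cell, and a minority are methylated in part of them, so that ribosomes of different make-up coexist. 18S rRNA is the RNA of the small subunit, which decodes the messenger RNA. The human gene of SNORD93, also known as HBII-336, spans 74 nucleotides at chr7:22856613-22856686 (GRCh38.p14).

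The rRNA around the site is shown because it holds the site and the 6 nucleotides on each side from which the score is computed. The capital marks Am576, and the 61 nucleotides run from position 546 to 606 of the human 18S rRNA.
18S rRNA around Am576: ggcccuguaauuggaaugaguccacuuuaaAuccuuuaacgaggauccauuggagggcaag
In the mouse 18S rRNA, positions 548 to 608, 61 of 61 nucleotides were identical. The identity went on for 305 nucleotides on the 5′ side of the site and for 145 on the 3′ side. Human and mouse scores of Am576 are thus read from the same letters.

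Total RNA was broken in alkali and sequenced by RiboMeth-seq, which counts how often reads begin or end at each nucleotide. The methyl group protects the neighbouring bond, so read ends become rare at a methylated nucleotide relative to those beside it. The score runs from 0, no protection, to 1, no read ends at the site. It averages over all rRNA of a sample, so part methylation in every cell and full methylation in some of the cells cannot be told apart.

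The edited human cells were SNORD52 knock-out clones KO1 and KO2, made with CRISPR-Cas9, and clones OE1 and OE2, in which a transgene expresses SNORD52 constitutively. All 4 derive from H9, a human embryonic stem cell line, and stayed undifferentiated. SNORD52 guides another site, 28S Um3925 (Um3904 in published numbering). The unedited (wild type) cells were mesoderm and endoderm from directed differentiation of H9, of the embryonic stem cell line HUES4 and of the induced pluripotent line KOLF2, and the same 3 lines undifferentiated. H9 also gave early neural precursors (neural induction), late neural precursors (neural differentiation) and mature neurons (neural maturation). The mouse samples, all wild type, were embryonic stem cells of the line TCF2.2, embryonic cortex (E11, E12.5, E14, E15.5 and E17), cortex at birth (P0) and in the adult, and hippocampus, cerebellum and olfactory bulb at adult and P0; the age of the adults is not given in the sources used here. Each of the 30 samples had 3 libraries, described by the submitters as biological triplicates, except undifferentiated H9 with 6, which makes 93 libraries. The files hold read ends on non-coding RNAs, so the identity of the cells was not checked against marker genes.

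A human library held 2077453 to 42703107 read ends in all, and a mouse library 1575991 to 42210167. Around Am576 the neighbouring positions carried on average 291 to 7298 read ends in a human library and 117 to 5136 in a mouse library. The counting error of a score, which covers counting only because reads carry no molecular identifiers, had a median of 0.0114 in human and 0.00671 in mouse. The SD between libraries of a sample had medians of 0.0259 and 0.0301, which is 2.27 and 4.48 times as large, and errors below are therefore the spread between libraries or samples. Libraries carried 6 indexes in 2 sets of 3: set 1 marked mature neurons, late precursors, undifferentiated KOLF2 and HUES4 and the cortex samples of E12.5 to P0, undifferentiated H9 had both sets, and set 2 marked the rest. The column names also give a library number, which is 26 for the knock-out clones, 31 for the overexpression clones and 39 for undifferentiated H9, 29 for all adult tissues, 30 for E11 cortex and the P0 tissues other than cortex, and 17 for cortex from E12.5 to P0. Where compared groups do not share a library number, that number and the condition cannot be told apart.

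Across the human samples Am576 was one of the most variable sites, low in the neural stages and the SNORD52 knock-out clones and high elsewhere. Sample means spanned 0.616, from 0.260 in mature neurons to 0.877 in undifferentiated HUES4, the 4th widest span among 109 tested sites, whose median span was 0.108. The neural samples and undifferentiated H9 form a contrast that chose the site, so this rank is not independent of that choice. The order from low to high was mature neurons (0.260 ± 0.0163, SD, n = 3 libraries here and below unless given), late precursors (0.277 ± 0.0182), early precursors (0.299 ± 0.139), KO1 (0.357 ± 0.0547) and KO2 (0.425 ± 0.0864). Then, after a gap of 0.308, came undifferentiated KOLF2 (0.733 ± 0.0560) and H9 (0.735 ± 0.0315, n = 6), H9 mesoderm (0.761 ± 0.0109), KOLF2 mesoderm (0.768 ± 0.0242) and HUES4 mesoderm (0.778 ± 0.0164). The highest samples were OE2 (0.786 ± 0.0455), OE1 (0.810 ± 0.0297), KOLF2 endoderm (0.838 ± 0.0186), H9 endoderm (0.847 ± 0.0223), HUES4 endoderm (0.848 ± 0.0277) and undifferentiated HUES4 (0.877 ± 0.0151). Libraries of neighbours in this order overlapped at every step except the one between KO2 and KOLF2.

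In mouse the same nucleotide had its lowest means in the adult brain and was close to fully protected in the cortex from E12.5 to E17. Sample means ran from 0.552 ± 0.132 in adult cortex through adult hippocampus (0.570 ± 0.117), adult cerebellum (0.638 ± 0.0745) and adult olfactory bulb (0.726 ± 0.0989) to E11 cortex (0.843 ± 0.0385), P0 hippocampus (0.845 ± 0.0369) and P0 olfactory bulb (0.852 ± 0.0354). Above them stood P0 cerebellum (0.889 ± 0.0247), embryonic stem cells (0.905 ± 0.00521), P0 cortex (0.948 ± 0.00124), and E15.5 (0.965 ± 0.00460), E14 (0.966 ± 0.00272), E12.5 (0.967 ± 0.00877) and E17 cortex (0.971 ± 0.0186). Neighbours in this order did not overlap only at the steps from embryonic stem cells to P0 cortex and from P0 cortex to E15.5 cortex. The span of 0.420 was the 15th widest of 110 tested sites, whose median span was 0.168. Since the adult and P0 samples form a contrast that chose the site, this rank is not independent of that choice either.

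**Figure D1:**
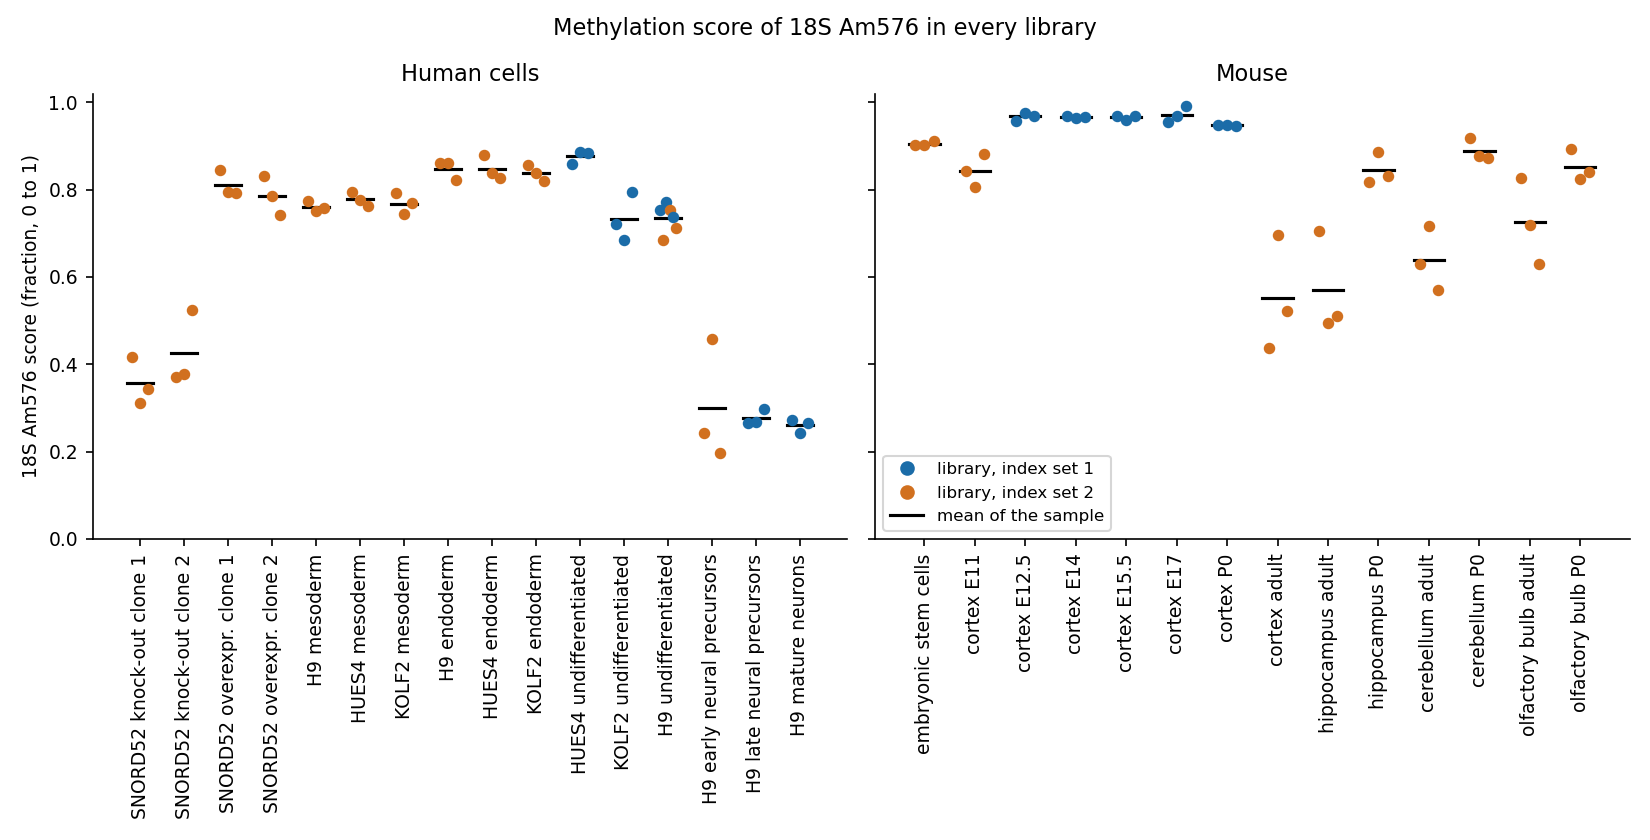
Score of 18S Am576 (fraction, 0 to 1) in every library of the human samples (left) and the mouse samples (right); points are libraries, coloured by index set, and bars are sample means. Neural stages and SNORD52 knock-out clones lie between 0.197 and 0.525, all other human libraries at 0.684 or above, and the adult mouse tissues lie lowest in mouse.

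The SNORD52 clones first give a check of their labels at 28S Um3925, the target of SNORD52. Its score was 0.0302 ± 0.0523 in KO1 and 0.0158 ± 0.0156 in KO2, 0.893 ± 0.0340 in OE1 and 0.895 ± 0.0424 in OE2, and 0.825 ± 0.152 (n = 6), 0.598 ± 0.139 and 0.722 ± 0.214 in unedited H9, HUES4 and KOLF2. The knock-out clones thus had scores near 0 at the SNORD52 target, as their labels say, and the overexpression clones did not overlap them.

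Am576, which is not the target of SNORD52, also fell in the knock-out clones. The scores were 0.418, 0.311 and 0.343 in the KO1 libraries and 0.372, 0.379 and 0.525 in the KO2 libraries, against 0.754, 0.685, 0.770, 0.753, 0.737 and 0.711 in unedited H9, 0.859, 0.886 and 0.884 in unedited HUES4 and 0.721, 0.684 and 0.794 in unedited KOLF2. All 6 knock-out libraries lay below every unedited library, which was so at 8 of 109 tested sites (7.34%). The clone means averaged 0.391 ± 0.0478 (SD, n = 2 clones) and the unedited lines 0.782 ± 0.0822 (n = 3 lines), a difference of -0.390 ± 0.0525 (SE; adjusted p = 5.90e-05, limma over 109 sites). In this comparison 39 sites (35.8%) passed, and 21 of them (19.3%) fell.

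In size this was the 4th change of the 109 sites. 28S Um3925 itself moved by -0.692, 28S Am1323 by -0.405 and 5.8S Um14 by 0.402. The read ends behind the scores show the same: the 3 KO1 libraries had 1077, 968 and 261 read ends at Am576 where the neighbours predicted 1850, 1405 and 398. The 3 KO2 libraries had 795, 911 and 251 where 1265, 1466 and 528 were predicted, while the first unedited H9 library had 807 where 3275 were predicted.

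The overexpression clones did not share this fall. Their libraries read 0.845, 0.794 and 0.792 in OE1 and 0.832, 0.786 and 0.741 in OE2, within the range of the unedited lines. Their mean of 0.798 ± 0.0169 (SD, n = 2 clones) differed from the unedited 0.782 ± 0.0822 by 0.0168 ± 0.0525 (SE; adjusted p = 0.782, limma), a comparison in which 52 sites (47.7%) passed and 45% fell. Knock-out clones set against overexpression clones, which carry the same indexes and the same parent line, gave -0.407 ± 0.0575 (adjusted p = 3.97e-05, limma), with 54 sites (49.5%) passing and 8 (7.34%) falling. There all 6 knock-out libraries lay below all 6 overexpression libraries, as at 4 of the 109 sites (3.67%), and Am576 had the 3rd largest change. That comparison was added after the data were seen.

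Restricting the unedited cells to the 3 H9 libraries with the clones' own indexes left the knock-out difference at -0.326 ± 0.0522 (SE; adjusted p = 0.000473, limma with libraries as units; 28.4% of sites passed). The undifferentiated H9 libraries are also the control of the neural contrast that chose the site, so this value, and in part the comparison with the 3 unedited lines, is not independent of that choice. The knock-out libraries here are 6 libraries of only 2 clones. The means compared between knock-out and overexpression clones include no unedited library. Against the same 3 H9 libraries the overexpression clones stood 0.0817 ± 0.0284 higher (adjusted p = 0.0596; 19.3% of sites passed). Each genotype rests on 2 clones. The library number differs between knock-out, overexpression and unedited cells, so genotype and library number cannot be told apart.

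**Figure D2:**
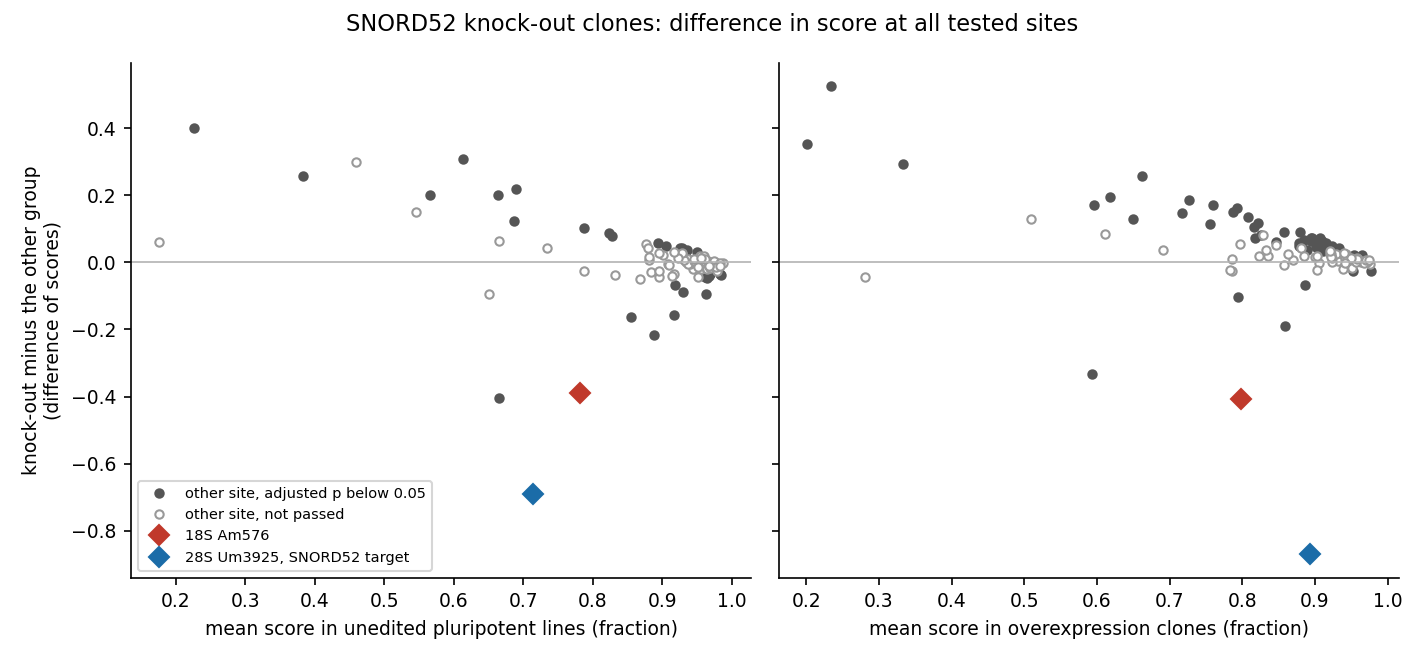
Difference in score between SNORD52 knock-out clones and unedited pluripotent lines (left) or overexpression clones (right) at all 109 tested sites, against the mean score of the second group (fractions); filled points passed at an adjusted p below 0.05. Am576 (red diamond) fell by 0.390 on the left and fell by 0.407 on the right, second on the right to 28S Um3925 (blue diamond) among the sites that fell.

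The raw profile of read ends shows the site beside its neighbours, whose counts also enter the score. Relative to the weighted mean of its 12 neighbours, the site held 0.609 of the read ends in the knock-out clones and 0.265 in unedited H9. Flanking positions moved too. The largest flank changes between the same groups were 0.416 at the position 3 nucleotides upstream and -0.376 at the position 5 upstream. Both were larger in size than the 0.344 at the site. Scored against only the 2 neighbours on each side, the knock-out difference was -0.402 (adjusted p = 0.000252, limma).

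In early neural precursors the site also held more of the neighbours' read ends than in undifferentiated H9, at 0.701. Late precursors and mature neurons had 0.723 and 0.740. Their largest flank changes against H9 were 0.440 at 6 nucleotides downstream in early precursors, and -0.337 and -0.368 at 6 nucleotides upstream in late precursors and mature neurons. The site itself changed by 0.436, 0.458 and 0.475 in the same order. That was slightly less than the largest flank in early precursors, and more in late precursors and mature neurons.

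**Figure D3:**
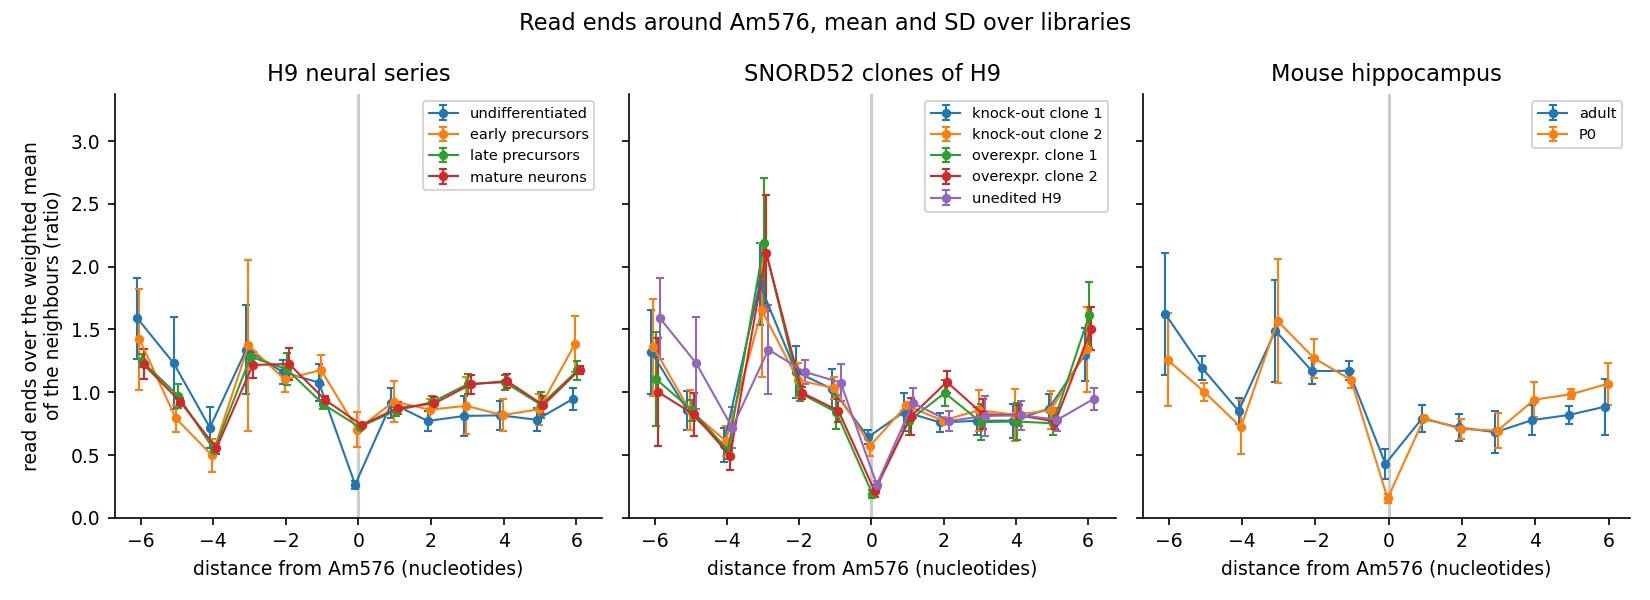
Read ends at each position from 6 nucleotides upstream to 6 downstream of Am576, divided by the weighted mean of the neighbours, in the H9 neural series, the SNORD52 clones with unedited H9, and mouse hippocampus; points are means and bars the SD over libraries. The dip at the site is shallow in neural stages and knock-out clones (0.575 to 0.740) and deep in unedited H9 (0.265), and several flanking positions have a wider SD than the site.

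The germ layers give the score in cells that left the pluripotent state by routes other than the neural one. Endoderm had 0.860, 0.860 and 0.822 in H9, 0.879, 0.838 and 0.827 in HUES4, and 0.856, 0.837 and 0.819 in KOLF2. Mesoderm had 0.773, 0.751 and 0.758 in H9, 0.795, 0.777 and 0.763 in HUES4, and 0.792, 0.744 and 0.768 in KOLF2. Every mesoderm library lay below every endoderm library, and at how many other sites this holds was not counted. The undifferentiated libraries given above overlapped both.

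No germ-layer difference at Am576 passed. Endoderm averaged 0.844 ± 0.00587 (SD, n = 3 lines) and undifferentiated cells 0.782 ± 0.0822, a difference of 0.0628 ± 0.0305 (SE; adjusted p = 0.118, limma with the cell line as block; 45.9% of sites passed). Mesoderm at 0.769 ± 0.00864 differed from undifferentiated cells by -0.0125 ± 0.0305 (adjusted p = 0.711; 50.5% of sites passed and 46.8% fell) and from endoderm by -0.0754 ± 0.0305 (adjusted p = 0.441; 2.75% of sites passed). HUES4 lay highest in the undifferentiated group and KOLF2 lowest.

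Between lines the mean changes differed in sign, and only the mesoderm difference between H9 and HUES4 passed a test. In mesoderm the change was 0.0258 in H9, 0.0350 in KOLF2 and -0.0984 in HUES4. H9 and HUES4 differed by 0.124 ± 0.0313 (SE, adjusted p = 0.0396, limma with libraries as units, 8 of 109 sites passed). That test was added after the data were seen, and its p-value was adjusted over sites and not over pairs of lines. The difference of 0.133 ± 0.0393 between KOLF2 and HUES4 did not pass (adjusted p = 0.129). In endoderm the changes were 0.112, 0.105 and -0.0284 in the same order of lines, and the 0.141 ± 0.0319 between H9 and HUES4 did not pass (adjusted p = 0.0591). Without HUES4 undifferentiated cells the endoderm difference grew to 0.107 (adjusted p = 0.00927), and against the 3 H9 libraries with the same indexes alone H9 endoderm stood 0.131 ± 0.0304 higher (adjusted p = 0.0197; 30.3% of sites passed). Undifferentiated H9 is also the control of the neural contrast that chose the site. The germ-layer tests and line differences that use it are thus not independent of that choice. Undifferentiated HUES4 and KOLF2 carried index set 1 and the germ layers set 2, so index and state cannot be told apart in those lines. The library number was 39 for undifferentiated H9, 7 for HUES4 and 14 for KOLF2. It was 32 for all endoderm, 28 for H9 mesoderm and 33 for HUES4 and KOLF2 mesoderm. Library number and state thus cannot be told apart in any line. Within undifferentiated H9, index set 2 read 0.717 ± 0.0342 and set 1 0.754 ± 0.0169, a difference of -0.0369 ± 0.0244 (adjusted p = 0.802). No site passed between the index sets by limma, with 9 at an unadjusted p below 0.05.

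The H9 neural series is one of the contrasts that chose the site, and its values are a description. The undifferentiated H9 libraries spanned 0.685 to 0.770 with a median of 0.745. Early precursors read 0.243, 0.458 and 0.197, late precursors 0.265, 0.268 and 0.298, and mature neurons 0.273, 0.242 and 0.266. All 9 neural libraries lay below all 6 undifferentiated ones, and the early precursors scattered most. Of the 3 early-precursor libraries, 2 read no higher than the highest mature-neuron library. The library number was 27 for early precursors, 11 for late precursors and mature neurons, and 39 for undifferentiated H9. Between each neural stage and H9, library number and state thus cannot be told apart.

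Against H9 the mean differed by -0.436 for early precursors, by -0.458 for late precursors and by -0.475 for mature neurons, or by -0.417, -0.477 and -0.493 against the 3 H9 libraries of the matching index set. Libraries lay entirely below those of H9 at 9.17% of the tested sites in early and again in late precursors, and at 6.42% in mature neurons. Only 3 of 109 sites (2.75%) did so at all 3 stages: 18S Am576, 28S Gm4370 and 28S Am4571. More sites lay entirely above H9, 38.5% of them in mature neurons.

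In the mouse brain the adult tissues lay below the P0 tissues in each region, the other contrast that chose the site. Over the 4 regions the mean was 0.622 ± 0.0788 (SD, n = 4 regions) in the adult and 0.884 ± 0.0467 at P0. Cortex libraries read 0.437, 0.696 and 0.522 in the adult and 0.948, 0.948 and 0.946 at P0. Hippocampus libraries read 0.705, 0.495 and 0.512 in the adult and 0.817, 0.887 and 0.831 at P0. In both regions the ages did not overlap, and the adult libraries spread widely.

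Cerebellum libraries read 0.629, 0.717 and 0.569 in the adult and 0.917, 0.877 and 0.872 at P0. Olfactory bulb libraries read 0.828, 0.719 and 0.630 in the adult and 0.892, 0.824 and 0.841 at P0. The ages did not overlap in cerebellum, and 1 adult olfactory bulb library lay among the P0 ones.

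The adult minus P0 difference was widest in cortex at -0.396, followed by hippocampus at -0.275, cerebellum at -0.251 and olfactory bulb at -0.127. How unusual this was depended on the region: adult libraries lay entirely below P0 libraries at 60% of the tested sites in cortex and 49.1% in cerebellum, but at 2.73% in hippocampus, where 71.8% lay entirely above. The share above was 12.7% in cortex, 4.55% in cerebellum and 6.36% in olfactory bulb. In olfactory bulb the share below was 38.2%, with Am576 not among the sites, and 28S Gm4623 and 28S Gm4637 (1.82% of sites) lay entirely below in all 4 regions. The general level of scores moved with age as well: the median over tested sites was 0.965 in the adult and 0.982 at P0 in cortex, 0.965 and 0.904 in hippocampus, 0.883 and 0.951 in cerebellum, and 0.923 and 0.953 in olfactory bulb. Adult cortex carried index set 2 and P0 cortex set 1; in the other 3 regions both ages carried set 2. Flanking positions, whose counts enter the score, moved between the ages as well. The largest change in relative read ends at a flank was -0.876 in cortex (3 nucleotides downstream) and 0.365 in hippocampus (6 upstream). It was 0.263 in cerebellum and 0.243 in olfactory bulb (both 4 downstream). In each region this was larger in size than the change at the site. The part of the general level, of the flanks and of the index in the adult values was not tested.

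The adult values also depended on which read ends were counted. In adult cortex the score from 5′ ends alone was 0.480 ± 0.210 and from 3′ ends alone 0.611 ± 0.104, and in adult cerebellum 0.584 ± 0.221 and 0.669 ± 0.0970. In single libraries the gap was wider: the third adult cortex library read 0.327 from 5′ ends and 0.683 from 3′ ends, and the second adult cerebellum library 0.836 and 0.576. In adult olfactory bulb (0.746 ± 0.125 by 5′ ends and 0.696 ± 0.118 by 3′ ends) and in all P0 regions the score from 5′ ends was the higher, with 0.891 ± 0.0197 from 5′ ends and 0.802 ± 0.0765 from 3′ ends in P0 hippocampus, and 0.926 ± 0.0153 and 0.840 ± 0.0731 in P0 cerebellum. The means of the adult tissues lay below those of P0 by either kind of end in all 4 regions. By 3′ ends single libraries of the ages overlapped in cerebellum (0.769 in an adult and 0.761 in a P0 library) and in olfactory bulb (0.831 and 0.739).

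**Figure D4:**
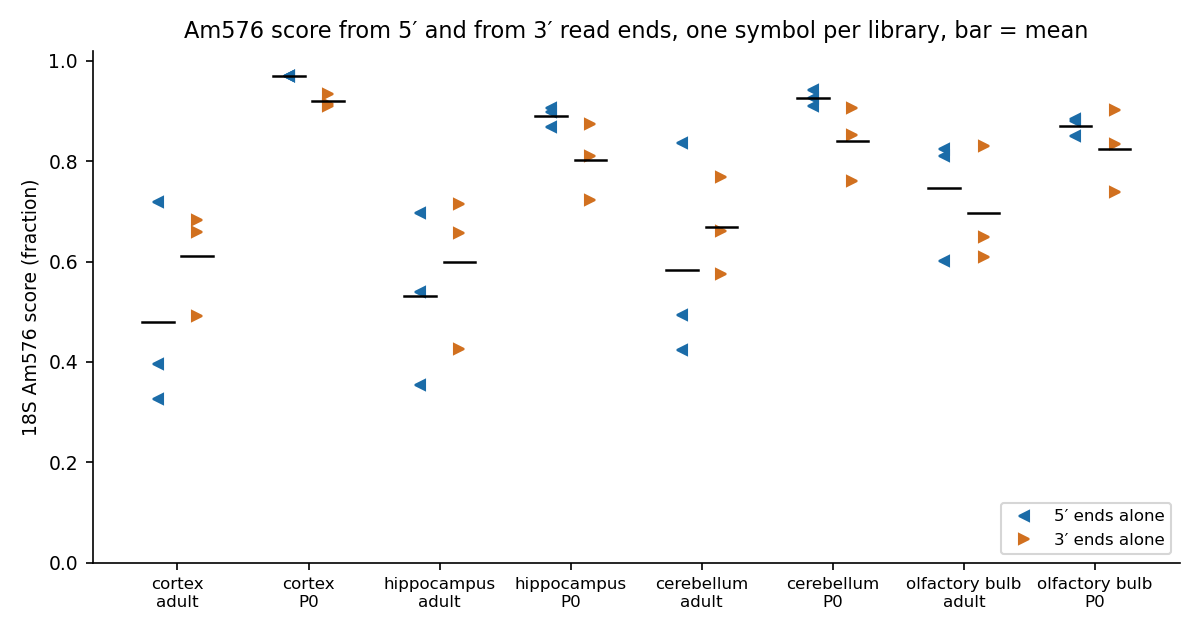
Score of Am576 (fraction) computed from 5′ read ends alone (blue) and from 3′ read ends alone (orange) in adult and P0 mouse brain regions; symbols are libraries and bars means. Adult libraries scatter from 0.327 to 0.836 by 5′ ends and from 0.427 to 0.831 by 3′ ends. P0 libraries stay at 0.8495 or above by 5′ ends and at 0.722 or above by 3′ ends, so the ages overlap by 3′ ends.

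Among the adult regions the means ranged over 0.174, lowest in cortex and highest in olfactory bulb, which did not pass (adjusted p = 0.271, limma F test with libraries as units; 45.5% of sites passed). Among P0 hippocampus, cerebellum and olfactory bulb the range was 0.0438 (adjusted p = 0.320; 33.6% of sites passed). With the index of the library as a block, the P0 range passed (adjusted p = 0.0130), and P0 cerebellum was the highest of the 3. The adult and P0 libraries belong to the contrast that chose the site, so these tests are not independent of that choice.

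In the cortex from E12.5 to P0 the site stayed near its ceiling. Libraries read 0.958, 0.975 and 0.969 at E12.5, 0.969, 0.963 and 0.967 at E14, 0.968, 0.960 and 0.968 at E15.5, 0.954, 0.968 and 0.991 at E17, and 0.948, 0.948 and 0.946 at P0. The P0 libraries lay below all libraries of E12.5 to E17, and at how many other sites this holds was not counted. The slope over the 5 ordered stages, all with index set 1 and library number 17, was -0.00347 ± 0.00202 (SE) per stage (adjusted p = 0.1996, limma with libraries as units). In that comparison 43.6% of sites passed, all of them with rising scores. The P0 cortex libraries also belong to the adult against P0 contrast that chose the site, so the slope is not independent of that choice. The order of the 5 stage means gave p = 0.317 by an exact two-sided permutation test, of which 0.0167 is the smallest value 120 orders allow. The highest value, 0.991 in the third E17 library, rests on 1 read end at the site where the neighbours predicted 114, and without that library the slope was -0.00462 (adjusted p = 0.0206).

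E11 cortex, which carried index set 2 and library number 30, read 0.842, 0.805 and 0.882, against a mean of 0.967 at E12.5. The median score over all tested sites was also lower in E11 cortex, 0.851 against 0.968 at E12.5, so its part in the level of Am576 was not tested. Embryonic stem cells read 0.901, 0.902 and 0.911, with a mean of 0.905 ± 0.00521, against 0.843 ± 0.0385 in E11 cortex. The difference of 0.0619 ± 0.0209 (SE) did not pass (adjusted p = 0.0744, limma; 25.5% of sites passed, 24.5% with a rise and 0.909% with a fall). Without the third E11 library it was 0.0812 (adjusted p = 0.0247). The median score over all tested sites was 0.911 in embryonic stem cells and 0.851 in E11 cortex, and its part in this difference was not tested. Embryonic stem cells had library number 26 and E11 cortex 30, so library number and sample cannot be told apart.

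The 13 other catalogued 18S sites within 120 nucleotides of Am576 served as a fixed list of neighbours, all of them tested in both species. Their scores were mostly high in human: 11 had median sample means between 0.885 and 0.960, while 18S Cm621 stood at 0.262 and 18S Am668 at 0.854. None had a fall like that of Am576 in the knock-out clones: changes ran from -0.0423 to 0.0622 with a median of 0.00161, against -0.00155 over all 109 sites. Of the 13, 3 rose, where 16.5% of all tested sites rose (18S Cm462 by 0.05005, 18S Am590 by 0.0359 and 18S Gm644 by 0.0334) and 1 fell, where 19.3% of all fell (18S Gm601 by 0.0357).

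In the germ layers the calls in the list were near the share over all tested sites. In endoderm 0 rose and 5 fell, where 3.67% of all sites rose and 42.2% fell, among them 18S Gm509, which fell by 0.106, and 18S Am468, which fell by 0.0941, with a median of -0.0183 against -0.0305 over all sites. In mesoderm 0 rose and 6 fell, where 3.67% of all sites rose and 46.8% fell, with medians of -0.0430 in the list and -0.0326 over all sites. Mesoderm against endoderm gave 0 calls in the list by limma, where 2.75% of all sites passed.

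In the overexpression clones 0 rose and 8 fell, where 2.75% of all sites rose and 45% fell, with a median of -0.0661 against -0.0276 over all sites, and 18S Gm509 fell by 0.137. Knock-out against overexpression gave 8 rises and 0 falls, where 42.2% of all sites rose and 7.34% fell, and 18S Cm462 rose by 0.163. In mouse, 3 of the 13 rose along E12.5 to P0 cortex (18S Am512, 18S Am590 and 18S Gm683), where 43.6% of all sites rose, and 4 rose in embryonic stem cells against E11 cortex, where 24.5% of all rose. Among adult regions 9 differed, where 45.5% of all sites did, and among P0 regions 6 differed, where 33.6% did.

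The sites whose sample means ran most like those of Am576 differed between species. In human they were 28S Cm1340 (Pearson r = 0.827 over 16 samples), 28S Am4571 (0.818) and 28S Um4620 (0.728), and the most opposed were 28S Um2414 (-0.885), 5.8S Um14 (-0.874) and 28S Um4306 (-0.864). Over all 108 other sites the median r was -0.520, and 87 were negative. The human values rest on the split between the 5 neural and knock-out samples and the 11 others: within the 11, r was 0.632 for 28S Cm1340 and -0.0994 for 28S Am4571. 28S Am4571 had its lowest sample mean, 0.665, in KO2 and its highest, 0.920, in undifferentiated KOLF2.

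In mouse they were 28S Gm4623 (r = 0.972 over 14 samples), the target of SNORD78 that published tables number Gm4593, 18S Cm1391 (0.855) and 28S Am1323 (0.742). The most opposed were 28S Am4590 (-0.859), 28S Am3760 (-0.806) and 5.8S Um14 (-0.711), and the median over 109 other sites was 0.294. Within the 10 samples that are not adult tissue, r was 0.801 for 28S Gm4623 and 0.926 for 18S Cm1391. 28S Gm4623 had a score of 0 in adult cortex and adult hippocampus, the samples where Am576 was lowest, and 0.779 in E17 cortex, where Am576 was highest. These correlations describe samples that share indexes, library numbers and general level.

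**Figure D5:**
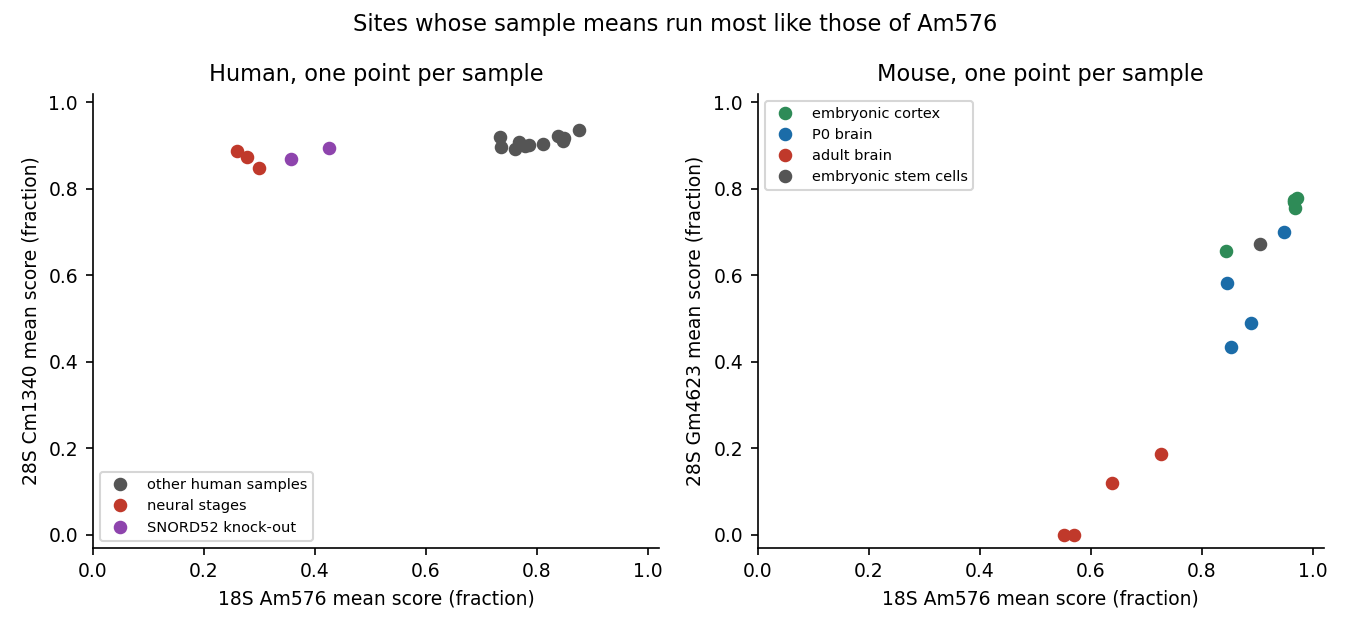
Sample mean score of the site most like Am576 in each species against that of Am576 (fractions): 28S Cm1340 in 16 human samples (left) and 28S Gm4623 in 14 mouse samples (right), 1 point per sample. In mouse the 4 adult tissues lie lowest on both axes; in human 28S Cm1340 varies only between 0.848 and 0.935 while Am576 splits into a low and a high set.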

How the data were processed

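RiboMeth-seq read ends were analysed from 30 samples. Per the file headers, the authors deposited raw counts of 5′ ends, 3′ ends and their sum at each rRNA position of each library, unscaled between libraries, and a methylation fraction. Neither aligner nor counter is given in the sources used here. Recomputing the deposited fraction as 1 minus the ratio of a position's count to the weighted mean count of 6 positions on each side (weights 1.0 to 0.5, negative values set to 0) differed by at most 5e-13 over 172785 values of 18S rRNA. The fraction depends on how evenly its neighbours break and is not an absolute stoichiometry.

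The catalogue of 111 sites came from general knowledge, with names by position in the human files. A site was tested with a mean score of at least 0.2 and at least 50 read ends per neighbouring position in every sample, 109 sites in human and 110 in mouse. Fits used limma 3.58.1 in R 4.3.3 with a trended prior and Benjamini-Hochberg adjustment over all tested sites at 0.05, with 1 mean per sample in the comparisons of human groups. Libraries were the units in mouse, and in human for the fits against index-matched H9 libraries, between index sets and between lines, and there p-values measure only the spread between libraries. The germ-layer fit had the cell line as block because each line gave all 3 states. The clone numbers of knock-out and overexpression clones share only a number: the correlation of clone deviations over sites was -0.0254. Scripts were tested on simulated data. Alternatives were other neighbours, 5′ or 3′ ends alone, upper-quartile scaling, other filters and priors, edgeR 4.0.16 on counts, the index as block and leaving out replicates. Named sites were Am576, the 3 most and 3 least alike by correlation, and called sites of the list within 120 nucleotides; sites beside the knock-out result, those entirely below H9 or P0 (28S Gm4370, 28S Gm4637) and the low members of the list (18S Cm621) were named after their values were seen. Site, lists and tests were chosen with earlier results of these data known. Other tools were Python 3.11.15, numpy 2.4.6, pandas 2.3.3, biopython 1.88 and matplotlib 3.10.9.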

Additional observations from a re-analysis of the deposited data

Results flagged for a closer look

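The change of Am576 between mesoderm and undifferentiated cells differed between lines: it was 0.0258 in H9 and -0.0984 in HUES4, and the difference of 0.124 passed a test of the difference itself (adjusted p = 0.0396, limma with libraries as units). That test was added after the data were seen and uses the H9 control of the neural contrast that chose the site. No other difference between lines passed, with 0.133 between KOLF2 and HUES4 in mesoderm (adjusted p = 0.129, limma). The p-values were adjusted over sites and not over pairs of lines. The score was higher than every undifferentiated library of the same line in 1 of 3 H9 mesoderm libraries and lower in 3 of 3 HUES4 mesoderm libraries. At how many other sites this holds was not counted. In HUES4 the undifferentiated libraries carried index set 1 and the mesoderm libraries set 2, and H9 had undifferentiated libraries of both sets. The part of the index was not tested. Each state of each of these lines had its own library number, so that number cannot be told apart from line and state.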

How the results depend on the processing

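The knock-out result kept its direction and passed in all 9 other settings (adjusted p from 9.67e-05 to 0.0152) and without each clone or line, from -0.424 to -0.343. Knock-out against overexpression did the same, also with the clone number as a replicate block (adjusted p = 0.00712), and ranged from -0.441 to -0.373 without single clones or lines. Endoderm against undifferentiated cells passed with 5′ ends alone (0.114), without undifferentiated HUES4 (0.107) and against H9 libraries of index set 2 (0.131), and leaving out samples gave 0.0405 to 0.107. Mesoderm turned positive with 5′ ends alone (0.0214), upper-quartile scaling (0.0101) and H9 libraries of index set 2 (0.0442), and ran from -0.0349 to 0.0317 without single samples (0.0317 without undifferentiated HUES4, 0.00760 without HUES4 mesoderm). The overexpression difference turned to -0.00659 with 3′ ends alone and ran from -0.00746 to 0.0643, negative without H9 (-0.00638) or without KOLF2 (-0.00746). The E12.5 to P0 slope passed as minus log2 read ends in edgeR (-0.15 per stage) and ran from -0.00462 to -0.00260. The P0 range passed with 5′ ends alone (0.0550) and with the index as a replicate block (0.0438). Stem cells against E11 passed in edgeR (0.72, minus log2 read ends) and ran from 0.0427 to 0.0812. With no replicate block by line no germ-layer call changed. The untested adult minus P0 difference was -0.490 by 5′ ends in cortex, and -0.342 by 5′ and -0.171 by 3′ ends in cerebellum. The causes were not tested. In mouse, Am576 did not reach a mean of 500 read ends per neighbouring position in every sample, so the setting with that minimum gave no value for it.

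Counts of passing sites moved by more than 1.5 times in some settings: 17 to 50 for the knock-out (39 as reported), 35 to 74 against overexpression (54), 21 to 74 for overexpression (52), 33 to 64 for endoderm (50), 25 to 62 for mesoderm (55), 0 to 3 for mesoderm against endoderm (3), 25 to 56 for the cortex slope (48), 0 to 82 for adult regions (50), 17 to 76 for P0 regions (37) and 14 to 46 for stem cells (28).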
